A study of Mus musculus with 4 samples.

Results

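The interneuron migration receptors and ligands comprised 6 genes, chosen by symbol: the receptors Cxcr4, Ackr3 and Erbb4 and the ligands Cxcl12, Nrg1 and Nrg3. All 6 were found among the 43346 features counted, each under 1 feature. The study profiled wild-type mouse telencephalon at E12.5 with 1 droplet single-cell library per region, namely the dorsal cortex (CTX) and 3 ganglionic eminences, the medial one (MGE), the caudal one (CGE) and the lateral one (LGE). The tissue of each library was pooled over embryos, the labels give the same age and the genotype wt for every group and name no treatment, and they describe sorting of live cells by DRAQ5 and DAPI. Because each region had a single library, differences between regions could not be tested, and the intervals given with levels are 95% intervals for counting error only. After filtering, 3432 CTX, 4552 LGE, 4610 MGE and 3136 CGE cells remained, with median depths of 6934.5 to 8235.5 UMIs (unique molecular identifiers, each a counted transcript copy). Each library was labelled by region only, and pairs of libraries shared 4 to 15 barcodes, of which 2 to 8 were among the kept cells.

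Young interneurons born in the ganglionic eminences reach the cortex by tangential migration. Cxcl12, a chemokine, attracts them and keeps them in their migratory streams. It signals through Cxcr4, while the atypical receptor Ackr3 also binds Cxcl12 and takes it up. The neuregulins Nrg1 and Nrg3 are ligands of Erbb4, a receptor tyrosine kinase carried by many migrating interneurons, and Lhx6 is a transcription factor of postmitotic MGE-derived neurons.

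The receptors and ligands were measured in high-Dcx cells, the young neurons, with Dcx above 1.5 on ln(1 + UMIs per 10000). These were divided into cells with at least 1 Lhx6 UMI (Lhx6-positive) and cells with none (Lhx6-negative). CTX held 43 Lhx6-positive and 752 Lhx6-negative cells, LGE 178 and 1885, MGE 1723 and 389, and CGE 602 and 1648. A cell without an Lhx6 UMI was not shown to lack the transcript, since the median depth of the Lhx6-negative cells was 6081 to 8138 UMIs.

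Most Lhx6-positive cells were GABAergic by a rule of a Gad2 or Dlx5 UMI and none of Neurod2 or Neurod6, which was met by 36 of 43 CTX, 1700 of 1723 MGE, 176 of 178 LGE and 587 of 602 CGE cells. Their level of Gad2, an enzyme of GABA synthesis, was 392 CPM (counts per 1e6 UMIs) in CTX, 469 in MGE, 575 in LGE and 512 in CGE. They differed in other markers. Nkx2-1, a factor of MGE progenitors, was at 707 CPM in the MGE cells but 4.3 in CTX, 57.7 in LGE and 126 in CGE, whereas Sst, a neuropeptide of cortical interneurons, was at 69.2 CPM in the MGE cells and at 1329 in CTX, 2039 in LGE and 1176 in CGE. The Lhx6-negative cells were not alike across libraries. In CTX they held Neurod6, a gene of glutamatergic neurons, at 1320 CPM and Gad2 at 4.0, and in MGE they held Nkx2-1 at 375 CPM and Isl1, a factor of projection neurons, at 308. Comparisons between Lhx6-positive and Lhx6-negative cells therefore set different populations against each other in each library.

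The receptor genes are all located on chromosome 1 (GENCODE M21 on GRCm38). Cxcr4 spans 128588199 to 128592293 and Erbb4 spans 68032186 to 69108059, both on the minus strand, and Ackr3 spans 90203980 to 90216751 on the plus strand. Of the ligands, Cxcl12 lies on chromosome 6 at 117168535 to 117181367, Nrg1 on chromosome 8 at 31814551 to 32884029 and Nrg3 on chromosome 14 at 38368952 to 39473088. All are annotated as protein-coding genes. Erbb4, Nrg1 and Nrg3 contain other counted features within their spans, antisense ones in Nrg1 and Nrg3, and whether counting used strand was not given in the sources used here. Counts of those 3 genes are uncertain to that extent.

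The 250 bases upstream of the start of the receptor genes are shown for the members that act as receptors. The sequences are from RefSeq on GRCm38.p6, read 5′ to 3′ on the gene's strand. Capitals mark the TATA box core TATAAA on either strand. It was searched together with the homeodomain core TAATTA, which reads the same on both strands, and copies of the motifs were allowed to overlap.
Cxcr4 (chr1:128592300-128592549, minus strand): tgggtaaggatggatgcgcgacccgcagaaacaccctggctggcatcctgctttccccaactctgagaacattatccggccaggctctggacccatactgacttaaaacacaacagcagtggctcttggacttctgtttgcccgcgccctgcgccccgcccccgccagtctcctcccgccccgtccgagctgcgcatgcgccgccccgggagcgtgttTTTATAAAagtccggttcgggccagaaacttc
Ackr3 (chr1:90203730-90203979, plus strand): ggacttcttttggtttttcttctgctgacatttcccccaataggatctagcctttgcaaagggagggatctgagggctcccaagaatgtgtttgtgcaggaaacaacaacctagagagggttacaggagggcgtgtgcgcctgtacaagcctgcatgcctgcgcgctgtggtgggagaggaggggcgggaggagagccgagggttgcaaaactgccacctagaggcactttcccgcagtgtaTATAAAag
Erbb4 (chr1:69108060-69108309, minus strand): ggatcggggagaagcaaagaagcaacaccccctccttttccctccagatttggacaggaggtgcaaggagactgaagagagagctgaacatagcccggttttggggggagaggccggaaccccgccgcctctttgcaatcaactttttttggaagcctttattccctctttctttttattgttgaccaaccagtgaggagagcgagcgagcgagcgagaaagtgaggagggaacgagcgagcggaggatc
Both chemokine receptors held the TATA box core, with its first base 30 bases before the start in Cxcr4, where copies on both strands overlap, and 8 bases before it in Ackr3. Of 32851 promoter windows of this length, 12.4% held the core on either strand. Erbb4 held neither motif. TAATTA was in none of the 3 windows and in 4.84% of all windows. These are matches of letters only.

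Cxcr4, the signalling receptor for Cxcl12, was highest in the Lhx6-positive cells of CTX and lowest in those of MGE. Its level in Lhx6-positive cells was 59.6 CPM in CTX (interval 32.6 to 100.1, 14 UMIs in 43 cells), 3.99 in MGE (2.92 to 5.32, 46 UMIs), 19.6 in LGE (12.1 to 29.9, 21 UMIs) and 23.7 in CGE (19.2 to 29.0, 96 UMIs). CTX exceeded CGE by 2.51-fold (1.32 to 4.42) and CGE exceeded MGE by 5.96-fold (4.15 to 8.66), while LGE and CGE did not differ beyond counting error (ratio 1.21, 0.752 to 2.05). The order was the same after each cell was thinned to 3000 UMIs, when Cxcr4 was detected in 20.5% of the CTX cells, 4.65% of LGE, 0.888% of MGE and 5.85% of CGE. The median depth of the CTX cells, 5786 UMIs, was the lowest of the 4. Barcodes of red blood cells, described with Ackr3, held at most 1 Cxcr4 UMI per library. With few non-globin UMIs, their upper limits were 24.6 CPM in CTX, 48.7 in MGE, 65.2 in LGE and 119 in CGE. Outside CTX these limits lie above the Lhx6-positive levels, so the barcodes cannot show whether background contributed there.

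In Lhx6-negative cells, Cxcr4 was at 3.23 CPM in CTX, 6.72 in MGE, 2.56 in LGE and 4.79 in CGE. The Lhx6-positive level was thus 18.5-fold higher in CTX (8.69 to 38.1), 7.63-fold in LGE (4.21 to 13.5) and 4.96-fold in CGE (3.52 to 7.04). In MGE the ratio was 0.593, with an interval of 0.329 to 1.12 that includes no difference. The plot of ratios shows MGE apart from the other libraries for Cxcr4, Ackr3, Erbb4 and Nrg3.

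Ackr3, which removes Cxcl12 from the extracellular space, was at 281 CPM in the Lhx6-positive cells of CTX (217 to 358, 66 UMIs), 337 in LGE (303 to 374, 362 UMIs), 148 in MGE (141 to 155, 1704 UMIs) and 155 in CGE (143 to 168, 627 UMIs). LGE and CTX did not differ beyond counting error (ratio 1.20, 0.920 to 1.58), nor did CGE and MGE (1.05, 0.957 to 1.15), but CTX exceeded CGE by 1.81-fold (1.38 to 2.34). Among Lhx6-negative cells it was at 38.9 CPM in CTX, 121 in MGE, 31.6 in LGE and 23.4 in CGE, so MGE was the highest of the 4. The ratio of Lhx6-positive to Lhx6-negative cells was 7.23 in CTX (5.43 to 9.51), 1.22 in MGE (1.07 to 1.38), 10.7 in LGE (9.24 to 12.3) and 6.62 in CGE (5.73 to 7.67).

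Ackr3 was also counted in barcodes with at least 50% globin UMIs, the red blood cells, which were removed from all other values. These held 26 Ackr3 UMIs in CTX, 11 in MGE, 18 in LGE and 6 in CGE, or 115, 145, 211 and 194 CPM of non-globin UMIs, at median non-globin depths of 1159 to 1814 UMIs. All 6 UMIs of CGE were in 1 barcode, and the other 5 genes had 0 or 1 UMI per library in such barcodes. The Ackr3 levels of Lhx6-negative cells lay below these values in every library, and those of Lhx6-positive cells in MGE and CGE, at 148 and 155 CPM, lay within their intervals (72.6 to 260.1 and 71.0 to 421). Within CTX the level differed between classes beyond counting error, from 0.840 CPM (0.308 to 1.83) in the high-Nestin progenitors to 281 in the Lhx6-positive cells. The part of background in the Ackr3 counts was not tested.

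Erbb4, the neuregulin receptor, was at 285 CPM in the Lhx6-positive cells of CTX (221 to 363, 67 UMIs), 208 in LGE (181 to 237, 223 UMIs), 86.8 in MGE (81.5 to 92.4, 1002 UMIs) and 188 in CGE (175 to 202, 760 UMIs). MGE was again the lowest, with CGE 2.17-fold above it (1.97 to 2.38), and CTX exceeded LGE by 1.38-fold (1.03 to 1.81). LGE and CGE did not differ beyond counting error (1.10, 0.947 to 1.28). In Lhx6-negative cells Erbb4 was at 4.30 CPM in CTX, 73.5 in MGE, 7.99 in LGE and 49.4 in CGE. The ratios were 66.3 in CTX (42.1 to 107), 1.18 in MGE (1.00 to 1.39), 26.0 in LGE (20.5 to 33.0) and 3.80 in CGE (3.41 to 4.25).

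**Figure D1:**
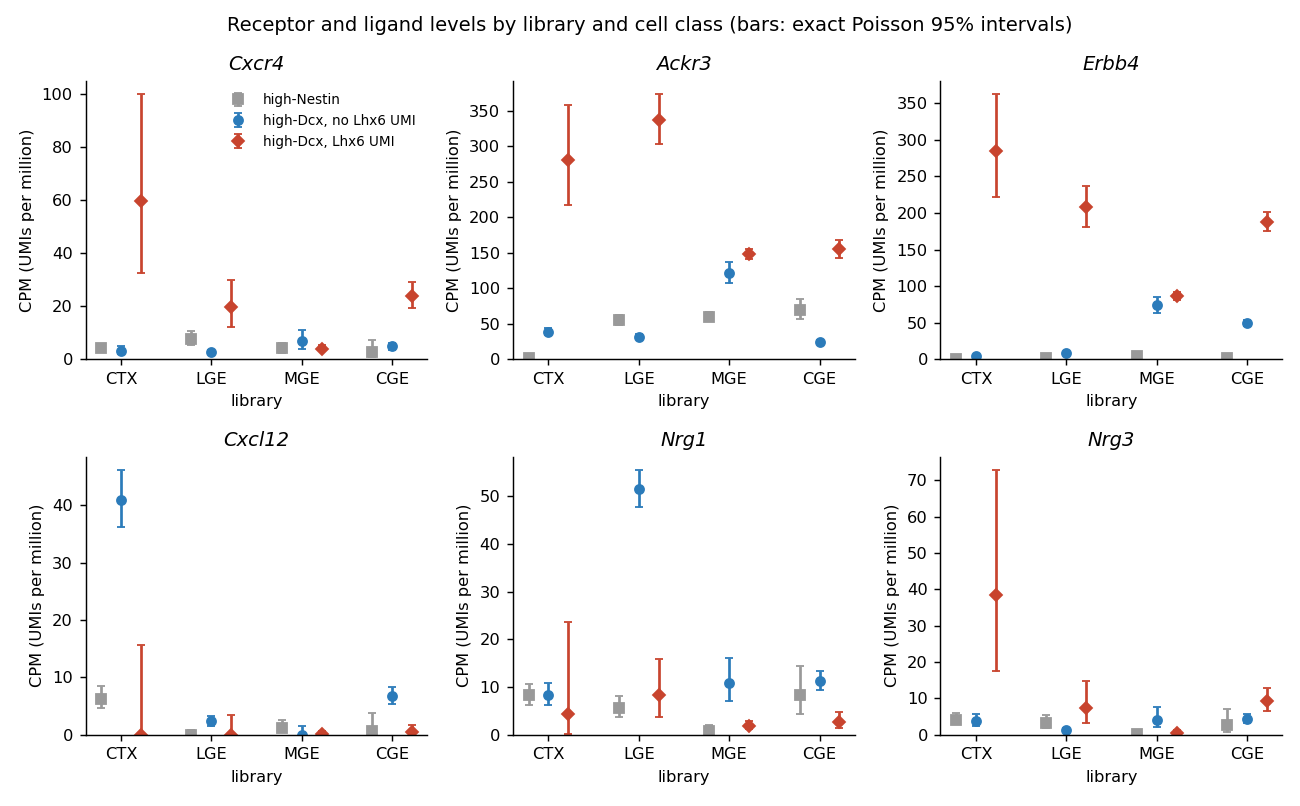
Levels in CPM (y axes, from 0) of the 6 genes in each library (x axes) for high-Nestin cells (squares), Lhx6-negative high-Dcx cells (circles) and Lhx6-positive high-Dcx cells (diamonds), with exact Poisson 95% intervals. Cxcr4, Ackr3 and Erbb4 were higher in Lhx6-positive than in Lhx6-negative cells of CTX, LGE and CGE, while Cxcl12 was highest in Lhx6-negative cells of CTX at 40.9 CPM and Nrg1 in those of LGE at 51.5 CPM.

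Among the ligands, Cxcl12 was barely detected in Lhx6-positive cells. There were 0 Cxcl12 UMIs in the 43 Lhx6-positive cells of CTX, which allows up to 12.8 CPM, and 0 in the 178 of LGE, which allows up to 2.79 CPM. MGE had 2 UMIs in 1723 cells and CGE 2 in 602 cells. Lhx6-negative cells held 266 UMIs in CTX (40.9 CPM, 36.1 to 46.1), 31 in LGE (2.34 CPM, 1.59 to 3.32), 0 in MGE, which allows up to 1.26 CPM, and 77 in CGE (6.70 CPM, 5.29 to 8.38). The CGE ratio was 0.0738 (0.00878 to 0.276).

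Nrg1 was the only one of the 6 genes lower in the Lhx6-positive cells of every library. It was at 4.26 CPM in CTX (1 UMI), 1.91 in MGE (22 UMIs), 8.38 in LGE (9 UMIs) and 2.72 in CGE (11 UMIs), against 8.30, 10.9, 51.5 and 11.2 CPM in Lhx6-negative cells. The ratio was 0.163 in LGE (0.0741 to 0.311), 0.174 in MGE (0.0943 to 0.320) and 0.242 in CGE (0.118 to 0.448). With 1 UMI the CTX ratio of 0.513 had an interval of 0.0128 to 2.98. The LGE stood out with 683 Nrg1 UMIs in its Lhx6-negative cells, of which 340 came from the 544 GABAergic cells with an Ebf1 UMI, at 88.1 CPM (79.0 to 97.96). Ebf1 is a transcription factor of striatal projection neurons. Cells defined in the same way held Nrg1 at 36.8 CPM in MGE (79 cells) and 26.5 in CGE (116 cells).

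Nrg3 was low throughout. In Lhx6-positive cells it was at 38.3 CPM in CTX (9 UMIs, 17.5 to 72.8), 0.607 in MGE (7 UMIs), 7.45 in LGE (8 UMIs) and 9.40 in CGE (38 UMIs). The Lhx6-negative levels were 3.84, 4.202, 1.21 and 4.35 CPM, and the ratios were 9.98 in CTX (4.10 to 22.1), 0.144 in MGE (0.0466 to 0.420), 6.17 in LGE (2.29 to 15.3) and 2.16 in CGE (1.38 to 3.36). The direction in MGE was thus opposite to that in the other 3 libraries. No test compared the libraries, and the CTX, LGE and MGE values each rest on under 10 UMIs in Lhx6-positive cells. After thinning to 3000 UMIs per cell, 3 of the 39 Lhx6-positive cells of CTX with that depth still held Nrg3. When the Dcx and Lhx6 gates were set anew on the thinned counts, 21 Lhx6-positive cells of CTX remained. These held no Nrg3 UMI, and CGE and LGE gated in this way were at 10.4 and 10.3 CPM.

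**Figure D2:**
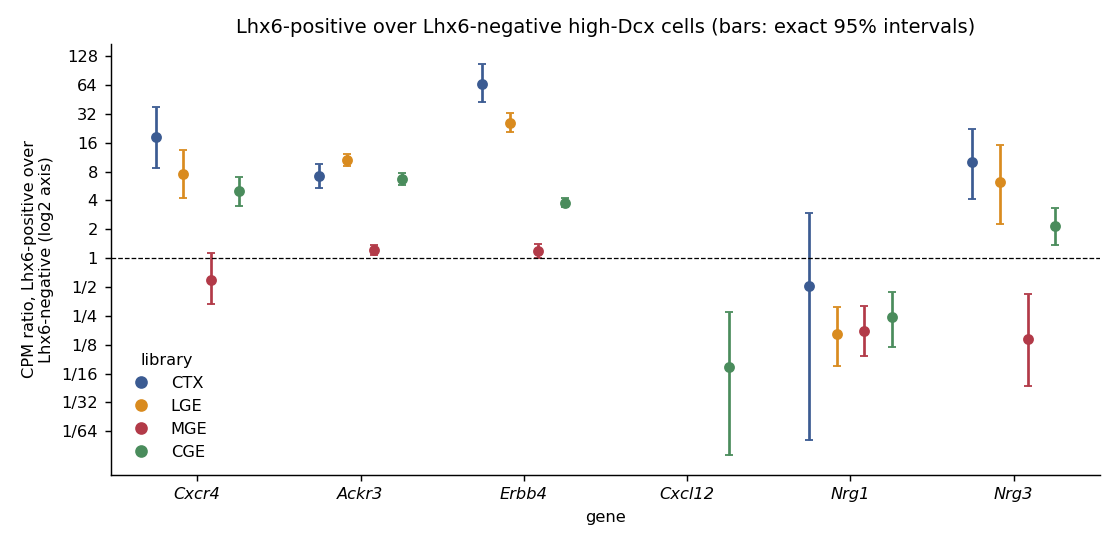
Ratio of CPM in Lhx6-positive to Lhx6-negative high-Dcx cells (log2 y axis) for each gene (x axis) and library (colour), with exact 95% intervals and a dashed line at no difference; ratios with a class at 0 UMIs are not drawn, which leaves Cxcl12 in CGE alone. The receptors lie above the line in CTX, LGE and CGE, from 3.80 for Erbb4 in CGE to 66.3 for Erbb4 in CTX. In MGE the receptors lie from 0.593 to 1.22, and Nrg1 and Nrg3 lie below the line. Nrg1 lies below the line in every library.

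Whether these differences held over libraries was tested on counts summed per library and class, with library as a block (edgeR's quasi-likelihood test with Benjamini-Hochberg adjustment over 12366 genes). Nrg1 was called lower in Lhx6-positive cells, with a log2 fold change of -2.31 ± 0.27 (SE, 4 libraries, adjusted p = 0.0417), and it was lower in 4 of 4 libraries. It was 1 of 6 genes, beside 0.235% of all genes tested called in either direction, with 0.226% called lower and 0.00809% called higher. The receptors and the remaining ligands were not called. The log2 fold change was 2.17 ± 0.73 for Cxcr4 (adjusted p = 0.510, edgeR; higher in 3 of 4 libraries), 2.32 ± 0.51 for Ackr3 (0.267; 4 of 4) and 3.03 ± 0.98 for Erbb4 (0.489; 4 of 4). It was -3.40 ± 0.81 for Cxcl12 (0.303) and 1.19 ± 0.92 for Nrg3 (0.805). The median over the 6 genes was 1.68 and over all genes -0.03.

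Single libraries decided several of these calls. Without the MGE library, edgeR called Cxcr4 (log2 fold change 2.95, adjusted p = 0.0297) and Ackr3 (2.95, adjusted p = 0.00406) higher and Cxcl12 (-4.31, adjusted p = 0.0382) lower in Lhx6-positive cells, while Erbb4 stood at 3.97 (adjusted p = 0.0514). Without CTX, LGE or CGE, Nrg1 was no longer called, with adjusted p of 0.0849, 0.297 and 0.232 (edgeR). Within mantle zone cells alone, an alternative chosen after the data were seen, the Nrg1 log2 fold change was -3.14 (adjusted p = 0.0136, edgeR).

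In CTX the Lhx6-negative cells were mostly glutamatergic. Among GABAergic high-Dcx cells of CTX, 36 were Lhx6-positive and 14 Lhx6-negative, and their Cxcr4 ratio was 1.44 (0.388 to 7.94), their Ackr3 ratio 1.02 (0.596 to 1.82) and their Erbb4 ratio 0.828 (0.499 to 1.42). In LGE and CGE, where most Lhx6-negative cells were GABAergic, the same restriction left Cxcr4 at 7.55 (4.17 to 13.4) and 4.94 (3.46 to 7.11), Ackr3 at 10.7 (9.28 to 12.4) and 6.25 (5.40 to 7.25), and Erbb4 at 25.5 (20.1 to 32.4) and 3.56 (3.18 to 3.97).

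The stage of the cells was addressed by comparing mantle zone cells with cycling subventricular zone cells of LGE, MGE and CGE. Mantle zone cells were high-Dcx and below 0.5 on the same scale for Nes, Hes5, Mki67, Ccnd1 and Ccnd2. Subventricular zone cells were high-Dcx with Mki67 and Ccnd2 above 0.5, Mapt and Rbfox3 below 0.5 and Nes not above 1.5. Mapt and Rbfox3 are markers of more mature cells, and the mantle zone gate set no limit on them. Taken over all cells of each zone, the 3 receptors were higher in the mantle zone. The share of Lhx6-positive cells changed as well. In LGE they were 2 of 372 subventricular and 109 of 546 mantle zone cells. The same counts were 185 of 204 and 635 of 821 in MGE, and 7 of 69 and 366 of 1187 in CGE. Stage and Lhx6 status were thus not separated in this comparison. Erbb4 was at 2.06 CPM in the subventricular zone cells of LGE and 14.1 in those of MGE, with 0 UMIs in the 69 cells of CGE, and at 62.7, 127 and 108 CPM in the mantle zone cells of LGE, MGE and CGE. Its log2 fold change was 3.95 ± 0.34 (SE, 3 libraries, adjusted p = 9.64e-06, edgeR). Ackr3 went from 46.5 to 95.1 CPM in LGE, from 92.3 to 179 in MGE and from 33.8 to 70.1 in CGE. The log2 fold change was 0.92 ± 0.11 (adjusted p = 9.21e-05, edgeR), with nearly the same ratio in each library, at 2.05, 1.94 and 2.08. Among Lhx6-negative cells alone, Ackr3 went from 46.1 to 28.7 CPM in LGE and from 26.2 to 26.6 in CGE. In MGE it went from 49.6 CPM (8 UMIs) to 138. Erbb4 in Lhx6-negative cells went from 2.07 to 18.4 CPM in LGE, from 12.4 (2 UMIs) to 88.4 in MGE and from 0 to 66.0 in CGE.

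Cxcr4 was counted 9 times in 372 subventricular zone cells of LGE, 1 time in 204 of MGE and 4 times in 69 of CGE. The mantle zone cells held 25, 31 and 97 UMIs, or 7.64, 6.42 and 12.8 CPM, and the log2 fold change was 1.69 ± 0.44 (adjusted p = 0.0105, edgeR). Thinning every cell to 3000 UMIs lost this call (1.51, adjusted p = 0.180). Among Lhx6-negative cells, Cxcr4 went from 2.66 to 4.21 CPM in LGE, from 6.15 to 6.28 in CGE and from 0 to 8.37 in MGE. The 3 receptors were 3 of the 4 genes tested, beside 46.4% of all genes called and 24.3% called higher in mantle zone cells, so a call was common in this comparison. Nrg1 was not called (0.85 ± 0.36, adjusted p = 0.0758, edgeR) and its direction turned without LGE (-0.42), as its ratio was 2.75 in LGE (2.09 to 3.65), 0.662 in MGE (0.271 to 1.71) and 0.935 in CGE (0.405 to 2.65). Cxcl12 and Nrg3 were below the filter on low counts.

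Lower Cxcr4 and Erbb4 levels in MGE were also seen among mantle zone cells. In Lhx6-positive mantle zone cells Erbb4 was at 243 CPM in CTX, 138 in MGE, 239 in LGE and 202 in CGE. Cxcr4 was at 36.1 CPM in CTX (9.82 to 92.3, 4 UMIs in 20 cells), 5.86 in MGE, 21.4 in LGE and 27.3 in CGE. The Erbb4 gap was smaller than in all Lhx6-positive cells. CTX exceeded MGE 1.76-fold (1.15 to 2.59) against 3.29-fold, and CGE exceeded MGE 1.46-fold (1.29 to 1.66) against 2.17-fold. Ackr3 was at 234, 191, 360 and 168 CPM in the same order, so that here CGE and not MGE was the lowest.

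Against high-Nestin progenitors, high-Dcx neurons differed clearly in Erbb4. Its level in high-Nestin cells was 0.140 CPM in CTX, 3.84 in MGE, 1.84 in LGE and 1.38 in CGE, and in high-Dcx cells 14.1, 84.6, 22.95 and 85.5 CPM, a log2 fold change of 4.75 ± 0.36 (SE, 4 libraries, adjusted p = 0.000367, edgeR). It was the only one of the 6 genes called, beside 55.2% of all genes tested, 27.6% in the higher direction. Ackr3 was instead split by region among progenitors, at 0.840 CPM in CTX, 59.7 in MGE (53.1 to 66.9), 54.8 in LGE (48.5 to 61.8) and 69.5 in CGE (56.6 to 84.4). The high-Dcx level exceeded it 56.3-fold in CTX and 2.40-fold in MGE, and the ratio was 0.993 in LGE and 0.831 in CGE (log2 fold change 1.20 ± 0.83, adjusted p = 0.258, edgeR). Cxcl12 had a log2 fold change of 2.10 ± 0.98 (adjusted p = 0.117) and was called when non-neural cells were removed (5.28, adjusted p = 0.00414, edgeR). In CTX, 45 Cxcl12 UMIs were in high-Nestin cells, and 2 remained when cells meeting a non-neural or other marker list were set apart.

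**Figure D3:**
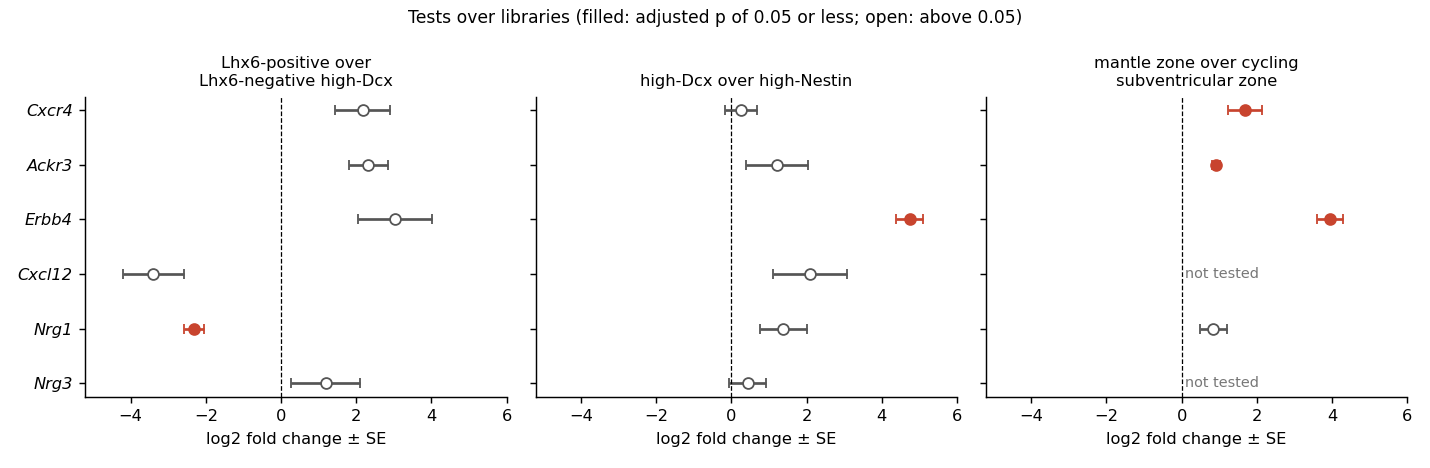
Log2 fold change with SE (x axes) of each gene (y axis) in the 3 tests over libraries, filled where the adjusted p was 0.05 or less. Nrg1 at -2.31 was the only gene called between Lhx6-positive and Lhx6-negative cells, Erbb4 at 4.75 the only one between high-Dcx and high-Nestin cells, and the 3 receptors were called higher in mantle zone cells.

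Within the MGE, the receptors were not uniform among Lhx6-positive cells. Of these, 374 had no Nkx2-1 UMI and 1349 had at least 1, and the cells without Nkx2-1 held more of every receptor. Cxcr4 was at 11.2 CPM without and 2.34 with Nkx2-1 (ratio 4.79, 2.57 to 8.96), Ackr3 at 241 and 126 CPM (1.91, 1.72 to 2.12) and Erbb4 at 177 and 66.3 CPM (2.67, 2.34 to 3.04). Nkx2-1 is lost from interneurons bound for the cortex and kept in those of the striatum. In CGE the ratios were 1.92 (1.11 to 3.52), 1.23 (1.02 to 1.49) and 1.48 (1.24 to 1.77). In LGE only the Ackr3 ratio lay above 1 (1.64, 1.17 to 2.36), and those of Cxcr4 (0.481, 0.176 to 1.51) and Erbb4 (0.829, 0.590 to 1.19) had intervals that include no difference. CTX had 1 Lhx6-positive cell with an Nkx2-1 UMI.

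A split by Lhx8, a factor of MGE-derived projection neurons and cholinergic cells, gave a like pattern in MGE. The 1024 cells without Lhx8 held Cxcr4 at 6.21 CPM and the 699 with Lhx8 at 1.01, a ratio of 6.13 (2.42 to 19.9). Ackr3 was at 168 and 121 CPM (1.39, 1.25 to 1.53) and Erbb4 at 99.9 and 69.3 CPM (1.44, 1.26 to 1.65). No Lhx6-positive cell of CTX had an Lhx8 UMI. In LGE all 3 intervals included no difference, and in CGE only 12 cells had Lhx8.

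Among Lhx6-positive cells of MGE, those with 4 or more Lhx6 UMIs held less of each receptor than those with 1. The 389 cells with no Lhx6 UMI did not extend this trend. They held Cxcr4 at 6.72 CPM, Ackr3 at 121 and Erbb4 at 73.5, none of them above the level at 1 UMI. From the 431 cells with 1 Lhx6 UMI to the 556 with 4 or more, Cxcr4 went from 8.42 CPM (5.27 to 12.7) to 1.69 (0.681 to 3.49), Ackr3 from 173 (157 to 190) to 131 (121 to 143) and Erbb4 from 116 (103 to 130) to 64.8 (57.3 to 73.1). Cells with more Lhx6 UMIs were also deeper, with median depths of 5914 and 6762 UMIs, and the part of depth was not tested.

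**Figure D4:**
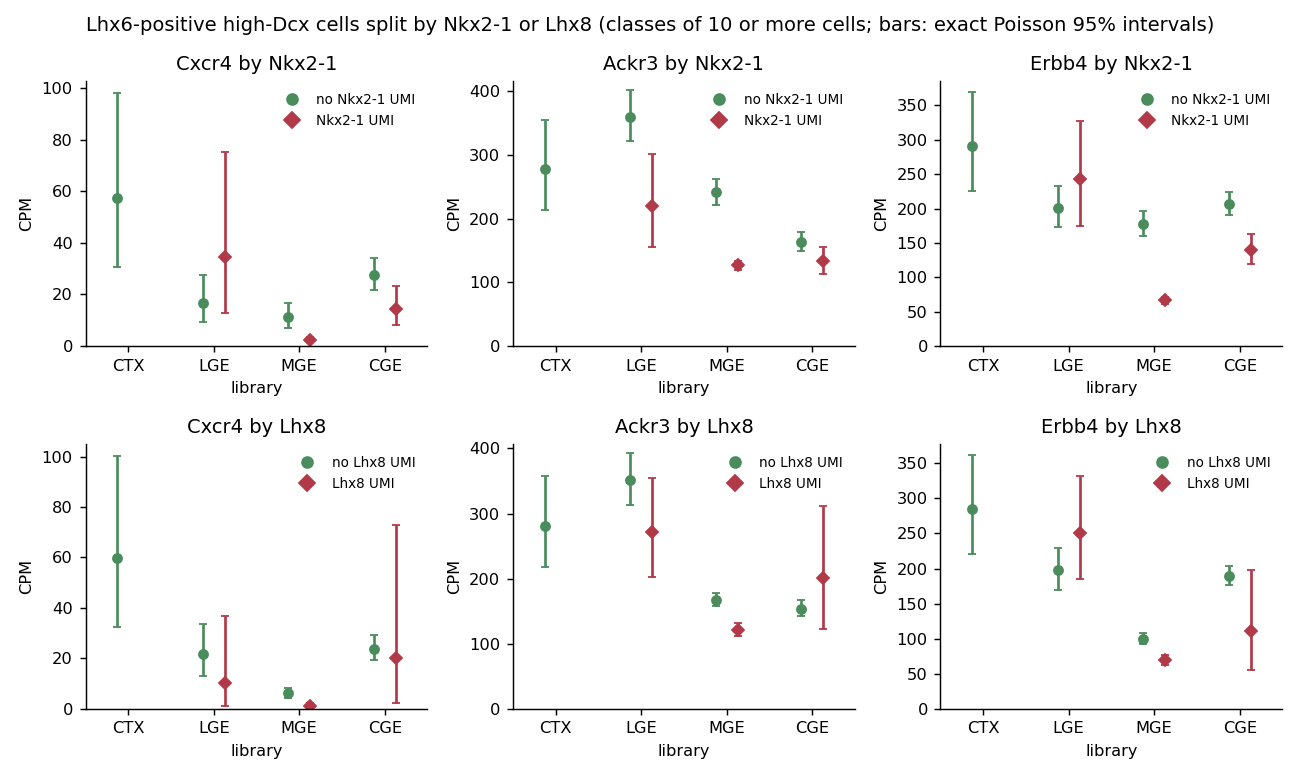
Cxcr4, Ackr3 and Erbb4 (columns) in CPM (y axes, from 0) in Lhx6-positive high-Dcx cells of each library (x axes), split by Nkx2-1 (upper row) and by Lhx8 (lower row), circles without and diamonds with a UMI of that gene, with exact Poisson 95% intervals. In MGE every receptor was higher in the cells without Nkx2-1 and in those without Lhx8, and Cxcr4 without Nkx2-1 stayed at 11.2 CPM, below the 57.3 CPM of the CTX cells.

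In MGE and CGE, Lhx6-positive cells with an Erbb4 UMI also held more of the other receptors. In Lhx6-positive cells of MGE with an Erbb4 UMI, Cxcr4 was at 9.05 CPM, against 1.54 in those without (ratio 5.87, 2.96 to 12.4), and Ackr3 was at 210.3 and 117 CPM (1.79, 1.63 to 1.97). In CGE the ratios were 2.99 (1.73 to 5.48) and 1.62 (1.36 to 1.95). In LGE the Cxcr4 ratio was 4.73 on 19 and 2 UMIs (1.14 to 41.9), and the Ackr3 ratio was 1.03 (0.823 to 1.29). Median depths of the cells with and without Erbb4 were 6169 and 6445 UMIs in MGE and 6698 and 6550 in CGE. The Nrg3 ratio by Erbb4 in CGE was 0.665, with an interval that includes no difference (0.334 to 1.33). Split by Ackr3 instead, Nrg3 in CGE was at 3.53 CPM in cells with Ackr3 and 15.0 in those without (0.235, 0.0874 to 0.544). In LGE its 8 UMIs were all in the 140 cells with Ackr3 and none in the 38 without. The lower limit of that ratio was 0.388, so its interval includes no difference.

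The sources of the ligands were examined in CTX, the region that migrating interneurons enter, by dividing its cells with marker lists. Of 651 Cxcl12 UMIs, 264 (40.6%, exact binomial interval 36.8 to 44.4) came from 734 glutamatergic high-Dcx neurons with Neurod2 or Neurod6, 182 (28.0%, 24.5 to 31.6) from 699 cells with Eomes, a marker of intermediate progenitors, and 185 (28.4%, 25.0 to 32.1) from 19 cells with 3 or more of 6 fibroblast genes. The last were 0.554% of the cells and held 0.531% of the UMIs of the library. Per UMI, Cxcl12 was at 1199.7 CPM (1033 to 1386) in the fibroblast-list cells, 41.4 (36.5 to 46.7) in glutamatergic neurons and 30.8 (26.5 to 35.6) in Eomes-positive cells. Fibroblast-list cells thus exceeded glutamatergic neurons 29.0-fold (23.9 to 35.1), and 16 of the 19 held Cxcl12, up to 29 UMIs in 1 cell. They also held C1qa, a gene of microglia, at 311 CPM, while the 23 microglia-list cells had no Cxcl12 UMI.

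Cells with 3 or more Cajal-Retzius genes had 8 Cxcl12 UMIs in 39 cells (22.5 CPM, 9.70 to 44.3), a level that did not differ beyond counting error from that of Eomes-positive cells (ratio of the latter to the former 1.37, 0.681 to 3.22) or glutamatergic neurons (1.84, 0.921 to 4.31). High-Nestin cells had 2 UMIs in 826 cells (0.284 CPM), and the 50 GABAergic neurons none. The ratio of glutamatergic to GABAergic neurons had a lower 95% limit of 2.98, and it was 3.70 with 3 UMIs taken as the floor for the latter. Outside CTX, glutamatergic neurons were few and held most of the Cxcl12 in LGE and CGE, with 28 of 38 UMIs from 25 cells in LGE (183 CPM, 122 to 265) and 74 of 95 from 101 cells in CGE (93.9 CPM, 73.7 to 118). In MGE, 16 of 22 UMIs were from 2 of 7 endothelial-list cells.

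Small classes had the highest neuregulin levels in CTX but held few of the UMIs. Cajal-Retzius-list cells held 3.52% of Nrg1 and GABAergic neurons 7.27% of Nrg3. Nrg1 was at 7.99 CPM in glutamatergic neurons, 8.24 in high-Nestin cells, 7.28 in Eomes-positive cells and 7.69 in all other cells, each with an interval that overlaps the others. The 39 Cajal-Retzius-list cells held 22.5 CPM (9.70 to 44.3, 8 UMIs). They exceeded glutamatergic neurons 2.81-fold (1.15 to 5.97), high-Nestin cells 2.73-fold (1.13 to 5.74), Eomes-positive cells 3.09-fold (1.25 to 6.65) and all other cells 2.92-fold (1.21 to 6.10). Nrg3 was at 3.92 CPM in glutamatergic neurons and 4.26 in high-Nestin cells, but lower in Eomes-positive cells, at 0.508 CPM (0.105 to 1.48), and higher in GABAergic neurons, at 29.9 CPM (12.9 to 58.8, 8 UMIs). GABAergic neurons exceeded glutamatergic ones 7.62-fold in Nrg3 (2.97 to 17.4).

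The receptors in the same CTX classes were distributed differently from one another. Erbb4 was the most concentrated, with 75.2% (65.7 to 83.3) of 101 UMIs from the 50 GABAergic neurons, which were at 284 CPM against 1.88 in glutamatergic neurons. Cxcr4 was highest in the Cajal-Retzius-list cells, which held 32.0% (25.1 to 39.5) of 172 UMIs at 155 CPM (116 to 201), 2.76-fold (1.54 to 5.26) above the 56.0 CPM of GABAergic neurons. These cells held Reln, the defining gene of Cajal-Retzius cells, at 2997 CPM and Trp73 at 269.7. Both are on the list that set the class, so their levels follow in part from that rule. For Ackr3, 52.0% (47.3 to 56.6) of 456 UMIs came from glutamatergic neurons, where it was at 37.1 CPM (32.6 to 42.2), and GABAergic neurons at 272 CPM were 7.33-fold higher (5.56 to 9.57).

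**Figure D5:**
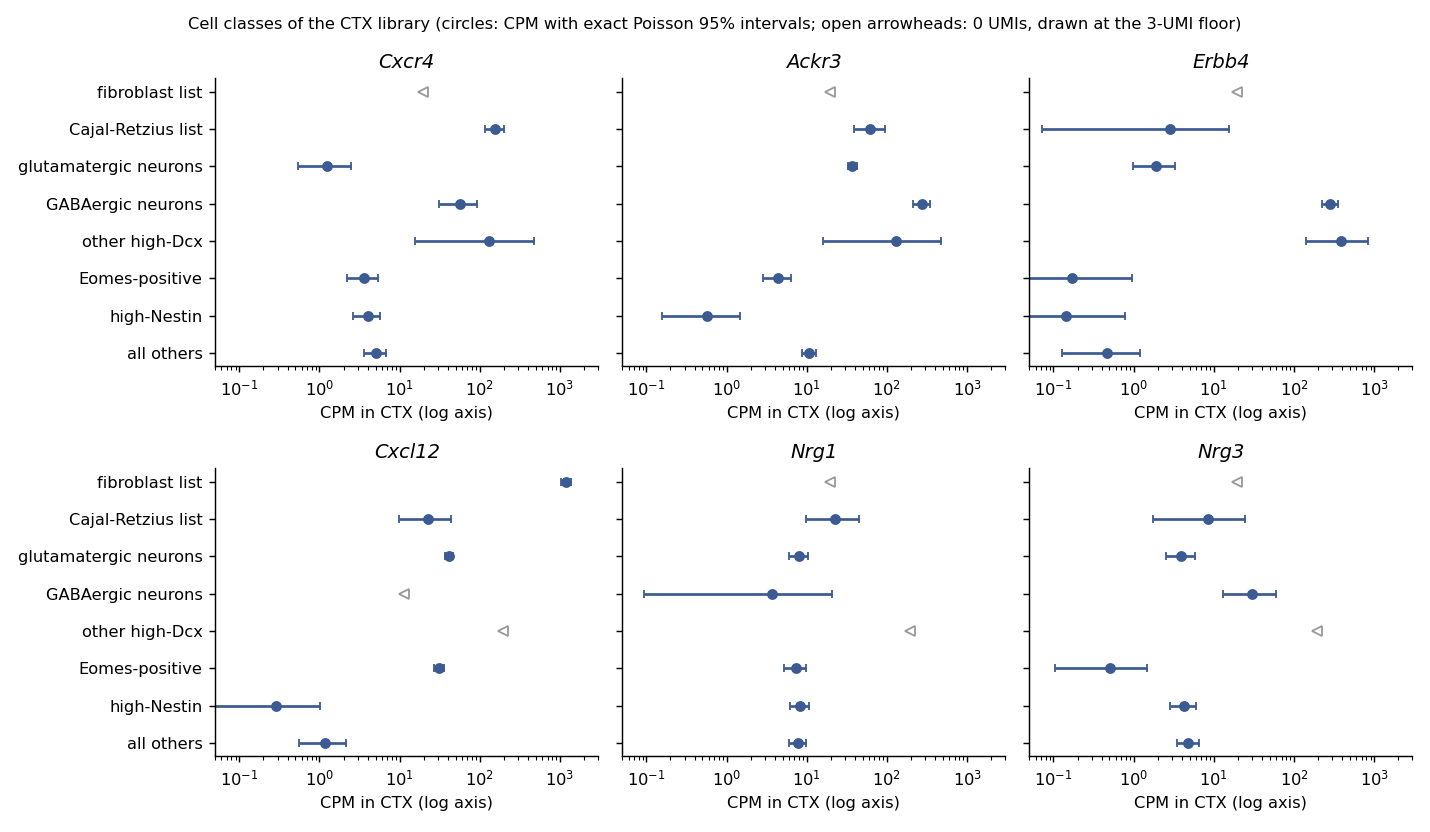
CPM of each gene (log x axes) in 8 classes of CTX cells (y axis), with exact Poisson 95% intervals; open arrowheads mark classes with 0 UMIs, drawn at the level that 3 UMIs would give. Among classes of 10 or more cells, Cxcl12 was highest in fibroblast-list cells at 1199.7 CPM, Cxcr4 in Cajal-Retzius-list cells, and Erbb4 and Ackr3 in GABAergic neurons. Nrg1 lay at 7.28 to 8.24 CPM in 4 of the classes.

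Other genes of the same pathways were taken as lists. None of 13 chemokine signalling genes and none of 12 ErbB signalling genes tested was called between Lhx6-positive and Lhx6-negative cells by edgeR, beside 0.235% of all genes, of which 959 of 12366 had an unadjusted p below 0.05. Of 15 other migration receptors, Cnr1, the cannabinoid receptor, fell by 2.64 on the log2 scale (SE 0.27, adjusted p = 0.0281). From subventricular to mantle zone cells, 10 of 15 of these receptors rose and 1 fell, beside 46.4% of all genes called, and those that rose included the Slit receptors Robo2 (log2 fold change 2.41) and Robo1 (2.22), the neurotrophin receptor Ntrk2 (2.44) and the semaphorin receptor Plxna3 (1.33). Of 11 chemokine signalling genes, 3 rose and 5 fell, including Elmo1 (1.51), an adaptor for Rac activation, and the G protein subunit Gnao1 (1.24), which rose, and the receptor kinase Grk6 (-0.86), which fell. Of 12 ErbB signalling genes, 5 rose and 3 fell. The synaptic scaffold Dlg4 (1.54), Pik3r1 (0.87) and the secretase Bace1 (0.73), which cleaves neuregulins, rose, and Erbb2ip (-0.53) fell. The median log2 fold change was 1.51 for the other receptors, -0.48 for chemokine signalling, 0.36 for ErbB signalling and 0.05 for all genes.

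Between high-Dcx and high-Nestin cells, 10 of 15 other migration receptors were higher and 1 lower, beside 55.2% of all genes called and 27.6% in each direction, with Plxna4 (6.03), Cnr1 (4.49) and Robo2 (3.82) the largest by log2 fold change among those named by rule. Of 13 chemokine signalling genes 3 were higher and 2 lower, a share of 38.5% that is below that of all genes, with Elmo1 at 4.16, and of 15 ErbB signalling genes 6 were higher and 5 lower. The median was 1.67 for the other receptors, 0.10 for chemokine signalling, 0.35 for ErbB signalling and 0.01 for all genes.

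The genes with the most similar pattern to each member were taken by Pearson correlation of log levels over 16 sums of cells from the 4 libraries, among 5615 genes, as a description. Erbb4 was closest to RP24-363O16.2 (r = 0.984), A330076H08Rik (0.983), C530008M17Rik (0.979), Neb (0.976) and Nxph1 (0.973). Cxcl12 was closest to Nxph4 (0.959), Nhlh1 (0.958), Nhlh2 (0.958), Lhx9 (0.957) and Prdm8 (0.955). Ackr3 was closest to Zeb2 (0.930) and Rab18 (0.898), Cxcr4 to Ptchd4 (0.909) and Coprs (0.904), Nrg3 to Ei24 (0.920) and Nlgn3 (0.905), and Nrg1 to Zfhx4 (0.7999) and Nefl (0.757). The sums share libraries, differ in depth and include classes of as few as 43 cells.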

How the data were processed

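The cells of 4 droplet libraries were sequenced, and UMI counts per feature and barcode were deposited by the authors, made with Cell Ranger (version 3.0.2 per the file headers, 3.0.0 per the submitters' processing notes) on mm10. The annotation release, the kit version of each library and the use of strand in counting are not given in the sources used here. The labels describe a sort of live cells, while the study's methods describe a sort only for other samples, so the sort is unsettled. The counts were not normalized before deposit.

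Barcodes with over 1500 and under 4500 detected genes, under 5% mitochondrial and under 1% beta-globin UMIs were kept, after the barcodes most like simulated doublets were removed at 0.8% per 1000 barcodes. The gate for Dcx and Nestin was above 1.5 on ln(1 + UMIs per 10000). Levels are CPM with exact Poisson 95% intervals, and ratios have exact intervals conditional on the summed UMIs. With 0 UMIs, 3 counts were taken as the floor. Intervals and floors cover counting error only. Cell classes of CTX were set by marker genes, with 3 or more genes of a list for Cajal-Retzius and non-neural cells.

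Counts summed per library and class were tested with edgeR 4.0.16 (quasi-likelihood, TMM, filterByExpr, library as a block) in R 4.3.3, with Benjamini-Hochberg adjustment over all genes tested and a threshold of 0.05. The sums of a library share an embryo pool, so p-values measure the spread between 4 libraries that also differ in region. The scripts were tested on simulated data. Their spread was set below that of the data in the Lhx6 and high-Nestin comparisons, so that run does not measure the power of those tests. Alternatives were DESeq2 1.42.0, RLE size factors, no filter, other cell filters, thinning each cell to 3000 UMIs, Dcx cutoffs of 1.0 and 2.0, 2 or more Lhx6 UMIs, GABAergic cells only, and leaving out each library. Mantle zone cells only, and cells without shared barcodes, were chosen after seeing the data. In the thinning alternative the classes were set anew on the thinned counts. Shares of cells with a gene after thinning kept the classes of the full counts.

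The members and lists were chosen with earlier results of these data known. Beside the 6 genes, at most 4 called genes per list and comparison were named, those with the largest absolute log2 fold change among genes at 50 or more CPM in a class. Promoter windows were read from RefSeq tables.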

Additional observations from a re-analysis of the deposited data

Results flagged for a closer look

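Several ratios lay on opposite sides of 1 in different libraries. Each library is a single sample, so the difference between libraries was not tested. The Cxcr4 ratio of Lhx6-positive to Lhx6-negative high-Dcx cells was 0.593 in MGE and 18.5 in CTX, and the Nrg3 ratio was 0.144 in MGE and 9.98 in CTX. The interval of the MGE Cxcr4 ratio includes no difference.

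For the ratio of high-Dcx to high-Nestin cells, both intervals excluded 1 only for Cxcr4, at 0.493 in LGE (0.320 to 0.767) and 3.53 in CGE (1.35 to 13.1). For Ackr3 it was 0.831 in CGE (0.676 to 1.03) and 56.3 in CTX (25.6 to 155), and for Nrg1 0.988 in CTX (0.672 to 1.45) and 8.74 in LGE (5.95 to 13.4). For Nrg3 it was 0.511 in LGE (0.261 to 1.03) and 6.04 in MGE (0.946 to 252), so neither interval excluded 1. From subventricular to mantle zone cells the Nrg1 ratio was 0.662 in MGE (0.271 to 1.71), where the interval includes 1, and 2.75 in LGE (2.09 to 3.65).

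Ackr3 was counted in barcodes of red blood cells, which no comparison used, with 26 UMIs in CTX, 11 in MGE, 18 in LGE and 6 in CGE, above the limit that a count of 0 allows.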

How the results depend on the processing

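The tests paired the classes within each library, with library as a block. No paired analysis was possible between regions, which had 1 library each and no replicate numbers in the labels. Between Lhx6-positive and Lhx6-negative cells, 29 genes were called by edgeR, 183 by DESeq2, 170 with no filter on low counts, 16 with no upper limit on genes, 52 after thinning, 61 with 2 or more Lhx6 UMIs, 13 in GABAergic cells only and 224 in mantle zone cells only, and 5 to 186 when 1 library was left out (7 without CTX, 5 without LGE, 186 without MGE, 7 without CGE). The cause was not tested. From subventricular to mantle zone cells, 5304 genes were called, against 3498 by DESeq2, 2905 after thinning, 3092 at a Dcx cutoff of 2.0 and 3834 to 5058 with a library left out; between high-Dcx and high-Nestin cells leaving out a library gave 5458 to 7225.

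Ackr3 passed the threshold between Lhx6-positive and Lhx6-negative cells by DESeq2 (log2 fold change 2.34) and with no filter (2.30), and Erbb4 by DESeq2 (3.21). Nrg1 lost its call with no upper limit on genes (-2.33), after thinning (-1.76), at a Dcx cutoff of 2.0 (-2.26) and in GABAergic cells only (-2.33). With a library left out, the log2 fold change was 1.67 to 2.95 for Cxcr4, 1.92 to 2.95 for Ackr3, 2.21 to 3.97 for Erbb4, -4.31 to -2.91 for Cxcl12, -2.42 to -2.16 for Nrg1 and 0.58 to 2.06 for Nrg3.

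Between high-Dcx and high-Nestin cells, Cxcr4 ranged from -0.10 to 0.72 with a library left out and turned negative without CGE. From subventricular to mantle zone cells, Nrg1 ranged from -0.42 without LGE to 1.14 without MGE. Thinning moved Cxcl12 to 54.3 CPM in glutamatergic neurons of CTX and 40.5 in Eomes-positive cells. Levels in high-Dcx cells, including ligand levels in the high-Dcx classes of CTX, gave 318 values when each was counted once per alternative. Of these, 276 lay within the counting interval of the main level.

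With 1 library per region, region cannot be told apart from library. In Lhx6-positive cells low counts limit Cxcl12, Nrg1, Nrg3 and, in CTX and LGE, Cxcr4, and absence of a UMI is not absence of expression.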

Other observations

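Within the Lhx6-negative cells of CGE, 819 held Nr2f2 together with Prox1 or Sp8, genes of CGE-derived interneurons. Their Erbb4 level was 37.5 CPM (32.8 to 42.8), their Ackr3 level 9.64 and their Cxcr4 level 2.03. In MGE, the 7 endothelial-list cells held 13 Cxcr4 UMIs, or 208 CPM.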
